A study of Homo sapiens with 3 samples.

Results

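The matrix metalloproteinase (MMP) genes of chromosome band 11q22 form a row of related protease genes, and 9 of them were measured here among 18417 genes. In chromosome order they are MMP7, MMP20, MMP27, MMP8, MMP10, MMP1, MMP3, MMP12 and MMP13. The members were chosen by symbol and position, after MMP1 had already been seen to have the largest increase on these arrays. Their differences are therefore given as a description. RNA was taken from parental LoVo cells, an established human colorectal cancer line, and from the irinotecan-resistant subline LoVo-R8 in 2 states, cultured free of the drug (LoVo 8R-) or with 8 μM irinotecan (LoVo 8R+). LoVo-R8 was obtained by raising the dose stepwise from 0.1 to 8 μM, and the sources used here do not say whether it is a single clone. All labels share a treatment text with irinotecan given 24 hours before RNA was purified, so whether the parental or the drug-free LoVo 8R- culture received it then is not settled, and this bears on each comparison below. Each state was measured on 1 Affymetrix Human Gene 1.0 ST array, without replicates, so no value has an error or a p-value.

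MMPs are zinc-dependent enzymes that are secreted as inactive proenzymes, opened by cleavage of a propeptide and held in check by tissue inhibitors (TIMPs). The 11q22 row holds the collagenases (MMP1, MMP8, MMP13), which cut fibrillar collagen, the stromelysins (MMP3, MMP10), which cut many matrix proteins and activate other MMPs, matrilysin (MMP7), macrophage elastase (MMP12), enamelysin of developing teeth (MMP20) and MMP27. Matrilysin is made by epithelial cells and is a known target of Wnt signalling in colorectal tumours. Most of the other members are better known from fibroblasts, macrophages and neutrophils. Many of their promoters carry a TATA box, an AP-1 element read by JUN and FOS proteins, and PEA3 elements read by ETS factors.

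The promoter of MMP7, one of the pair of members with higher RNA in LoVo-R8, is shown beside that of MMP10, the measured gene next to MMP1, whose RNA was not higher at 2-fold. The 250 bases before each start site are from RefSeq (GRCh38.p14), read 5′ to 3′ on the minus strand of the chromosome at chr11:102530748-102530997 for MMP7 and chr11:102780629-102780878 for MMP10. Capitals mark exact matches to AP-1 (TGAGTCA), to PEA3 (AGGAAG), to TCF/LEF (ATCAAAG) or to the TATA box (TATAAA) on either strand, and no match overlaps another.
MMP7: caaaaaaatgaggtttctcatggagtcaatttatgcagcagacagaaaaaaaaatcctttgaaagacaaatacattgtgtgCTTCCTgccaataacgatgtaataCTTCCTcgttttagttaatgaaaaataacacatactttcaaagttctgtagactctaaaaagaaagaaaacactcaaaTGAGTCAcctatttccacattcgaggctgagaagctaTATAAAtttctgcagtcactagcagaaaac
MMP10: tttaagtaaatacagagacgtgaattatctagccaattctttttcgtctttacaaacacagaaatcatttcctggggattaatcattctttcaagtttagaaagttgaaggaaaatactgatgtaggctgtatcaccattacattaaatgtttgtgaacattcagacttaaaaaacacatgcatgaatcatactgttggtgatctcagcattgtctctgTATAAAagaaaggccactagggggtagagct

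The MMP7 window holds 1 AP-1 match, 67 to 61 bases before the start, 2 PEA3 matches on the opposite strand, at 169 to 164 and 145 to 140 bases before it, and TATA letters at 30 to 25. No exact TCF/LEF match was found in it. Of the 4 motifs, MMP10 holds only TATA letters, at 31 to 26 bases before its start. Promoter entries were found for 5 of the 9 members. In the windows of MMP20 and MMP8 the letters found were TATA, 1 match each, and MMP27 holds none of the 4 motifs. Over all 35116 promoter windows, which run from 250 bases before to 50 after the start, AP-1 was found in 4.95%, PEA3 in 33.6%, TCF/LEF in 2.62% and TATA in 11.5%. These are exact matches of letters, and binding was not measured. Variants of the motifs were not counted. The MMP7 window holds ttcaaag, which differs from the TCF/LEF letters in its first base, on both strands. The MMP10 window holds tgaatca, which differs from the AP-1 letters in its middle base. Whether any of these letters bears on the RNA of either gene was not tested. No sequence is shown for MMP1, MMP3, MMP12 and MMP13.

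MMP1 and MMP7 had more RNA on both LoVo-R8 arrays than on the parental array, and the 7 other members stayed near their parental levels. MMP1, the interstitial collagenase, had a log2 level of 6.34 in the parental line, 11.19 in LoVo 8R- cells and 11.53 in LoVo 8R+. Both LoVo-R8 arrays lay far above the parental one and close to each other. The differences of 4.85 and 5.20 on the log2 scale correspond to 28.8-fold and 36.7-fold as measured, against a parental level not shown to be above background, so the true ratio may be larger. On both arrays this was the largest measured increase among all 18417 genes, and the rank has the same limit. In bulk RNA, more cells with MMP1 and more MMP1 RNA per cell cannot be told apart.

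MMP7, matrilysin, had a log2 level of 6.47 in the parental line, 8.40 in LoVo 8R- cells and 9.02 in LoVo 8R+. The parental array was the lowest and the array with irinotecan the highest. The log2 differences from parental were 1.93 and 2.55, or 3.81-fold and 5.87-fold, and ranked 52 and 34 among all genes from the highest down. At 2-fold, 2 of the 9 members were higher and 0 lower in LoVo 8R-, against 1.64% of all genes higher and 2.78% lower. In LoVo 8R+ the counts were also 2 and 0, against 2.25% higher and 2.3% lower. Both comparisons use the same parental array, and nothing is read from these counts because MMP1 led to the choice of the members.

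The other collagenase genes did not pass 2-fold. MMP8, the neutrophil collagenase, had log2 levels of 3.84 in the parental line, 3.88 in LoVo 8R- cells and 3.59 in LoVo 8R+. MMP13, collagenase 3, had levels of 4.82, 4.91 and 4.82 in the same order. Neither gene differed between any pair of arrays by more than 0.29 on the log2 scale.

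The stromelysin genes, which lie on either side of MMP1, also kept to their parental levels. MMP10 had log2 levels of 5.20, 5.42 and 5.42 in the parental line, LoVo 8R- and LoVo 8R+, a difference of 0.22 on both LoVo-R8 arrays. MMP3 had 5.33, 5.52 and 5.33, so its difference was 0.19 in LoVo 8R- cells and 0.00 in LoVo 8R+. Both genes adjoin MMP1, whose own differences were 4.85 and 5.20.

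The remaining members also stayed close to parental levels. Macrophage elastase, MMP12, had log2 levels of 4.78 in the parental line, 4.78 in LoVo 8R- cells and 4.86 in LoVo 8R+. Enamelysin, MMP20, had 5.49, 5.79 and 5.49. MMP27 had 4.44 on each array. Among the 7 members other than MMP1 and MMP7, differences from parental ran from 0.00 to 0.30 in LoVo 8R- cells and from -0.26 to 0.22 in LoVo 8R+. The median over all 9 members was 0.19 in LoVo 8R- cells and 0.00 in LoVo 8R+, and the median over all genes was 0.00 on both.

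**Figure D1:**
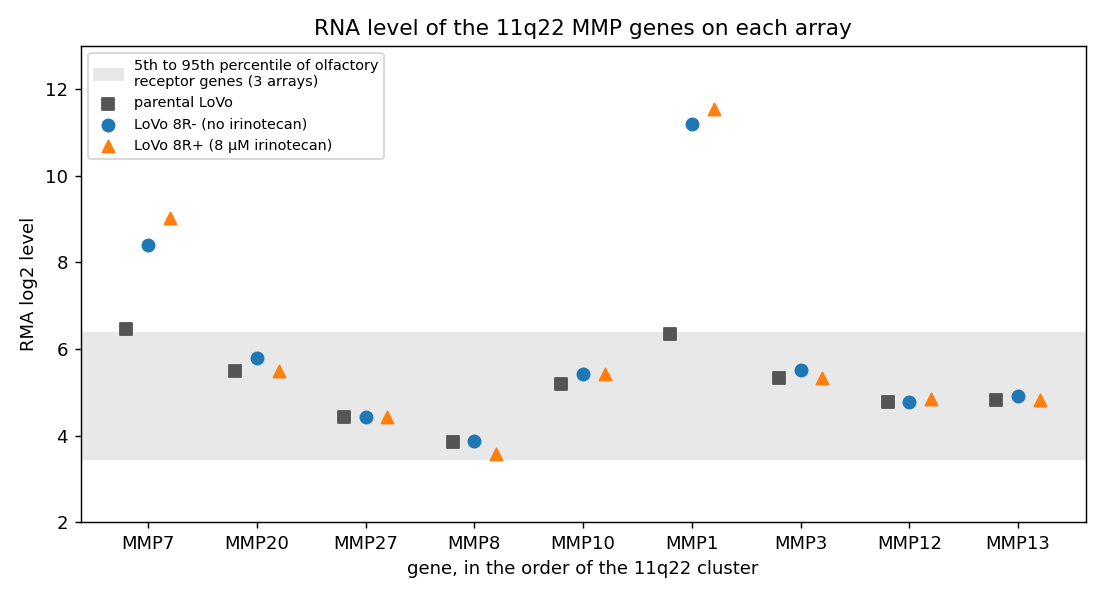
RMA log2 level (vertical axis) of the 9 MMP genes in cluster order (horizontal axis) on 1 array each of the parental line (squares), LoVo 8R- cells (circles) and LoVo 8R+ cells (triangles), with the range of most olfactory receptor genes shaded. MMP1 goes from 6.34 to 11.19 and 11.53 and MMP7 from 6.47 to 8.40 and 9.02, while the other genes stay within the shaded range.

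The levels of these 7 genes lay at the dim end of the arrays. Because probe sets differ in brightness, their levels were set only roughly beside those of 341 olfactory receptor genes, which are known mainly from the nose. The central 90% of the receptor genes (5th to 95th percentile) ran from 3.47 to 6.32 in the parental line, 3.50 to 6.37 in LoVo 8R- cells and 3.47 to 6.34 in LoVo 8R+. All 7 members were inside this range and below the array median of 6.94, 6.95 and 6.94 on each array. MMP1 and MMP7 were near its upper edge in the parental line, above 95.3% and 97.7% of the receptor genes, and above every receptor gene on both LoVo-R8 arrays, where the highest stood at 7.30 and 7.22. The parental levels of MMP1 and MMP7 therefore lie where background limits the size of a fold change, and RNA of the 7 dim genes was not distinguishable from background by these values.

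MMP1 differed little between the LoVo-R8 arrays. Its log2 level was 0.35 higher in LoVo 8R+ than in LoVo 8R-, and 8.31% of genes had a difference at least as high. In either direction, 95% of all genes differed by less than 0.53 between these arrays. For MMP7 the difference was 0.62, a 1.54-fold higher level with irinotecan, and 2.45% of genes had a difference at least as high. None of the 9 members passed 2-fold between the LoVo-R8 arrays, against 0.527% of genes higher and 0.114% lower with irinotecan. The 7 other members had differences from -0.30 to 0.08. Without replicate arrays, whether the difference of MMP7 exceeds culture-to-culture variation was not tested.

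The increases were at separate points of the row. In the order of genes in RefSeq (GRCh38.p14), 4 members lie between MMP7 and MMP1, and each of them, MMP20, MMP27, MMP8 and MMP10, was within 0.30 of its parental level on both LoVo-R8 arrays. The first measured gene outside the cluster beside MMP7 is TMEM123, with log2 levels of 11.78 in the parental line, 11.98 in LoVo 8R- cells and 12.05 in LoVo 8R+. On the side of MMP13 it is DCUN1D5, a neddylation factor, with 9.45, 9.41 and 9.29. Neither edge gene differed from parental by more than 0.27.

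Of the 20 measured neighbours, 10 on each side, 1 was higher at 2-fold in LoVo 8R- cells and 0 in LoVo 8R+. On either array 0 were lower. The shares of all genes past 2-fold were 1.64% up and 2.78% down without irinotecan, and 2.25% and 2.3% with it. Nothing is therefore read from the neighbour counts. The higher neighbour was CASP5, an inflammatory caspase, with log2 levels of 5.61, 6.79 and 5.87 and differences of 1.18 and 0.25. Its parental and LoVo 8R+ levels lay in the central range of the receptor genes. Its LoVo 8R- level lay above that range but below the highest receptor gene (7.30), so its differences have no firm size. The median difference of the neighbours was 0.16 in LoVo 8R- cells and 0.00 in LoVo 8R+. YAP1, a transcriptional coactivator that is amplified together with this region in some tumours, had 0.47 and 0.39. WTAPP1, a transcribed pseudogene whose span in RefSeq covers MMP1, is named by 0 probe sets here, and whether its RNA adds to the MMP1 value was not tested.

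**Figure D2:**
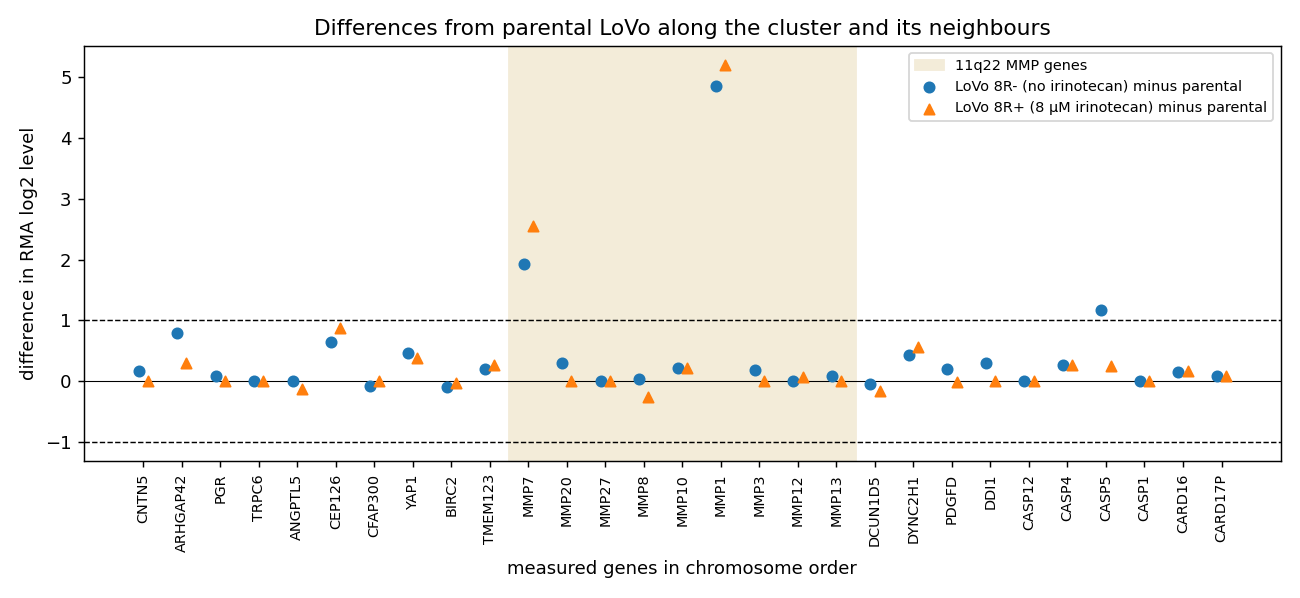
Difference in RMA log2 level from parental LoVo (vertical axis) in LoVo 8R- cells (circles) and LoVo 8R+ cells (triangles) for the cluster (shaded) and 10 measured genes on each side, in chromosome order (horizontal axis), with dashed lines at 2-fold. MMP1 (4.85 and 5.20) and MMP7 (1.93 and 2.55) stand out from the genes next to them.

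MMP genes outside 11q22 did not differ at 2-fold. Of 13 measured, 0 were higher and 0 lower on either LoVo-R8 array, with medians of 0.09 in LoVo 8R- cells and 0.02 in LoVo 8R+. Without irinotecan, only 1.64% of all genes rose past 2-fold and 2.78% fell past it. With the drug these shares were 2.25% and 2.3%, so nothing is read from the counts of 0. In the parental line, LoVo 8R- and LoVo 8R+, 8, 9 and 8 of the 13 were no brighter than the highest olfactory receptor gene. MMP2 and MMP9 were among these on each array, and differences of such dim genes may be too small to be seen. MMP11, stromelysin 3, had log2 levels of 7.62 in the parental line, 7.82 in LoVo 8R- cells and 8.11 in LoVo 8R+. MMP15, a membrane-anchored MMP, had 8.03, 7.75 and 8.37. The gelatinase genes MMP2 and MMP9 had differences of 0.08 and 0.29 in LoVo 8R- cells and 0.09 and -0.01 in LoVo 8R+.

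Of 9 measured inhibitor genes, none passed 2-fold, against 1.64% of all genes higher and 2.78% lower in LoVo 8R- cells. In LoVo 8R+ the shares were 2.25% and 2.3%, so nothing is read from this count. On each array 6 of the 9 were no brighter than the highest olfactory receptor gene, so their differences may be too small to be seen. TIMP1, a secreted inhibitor of most MMPs, had log2 levels of 11.52 in the parental line, 12.11 in LoVo 8R- cells and 12.49 in LoVo 8R+, so it lay above parental by 0.59 and 0.97. TIMP2 had 8.52, 8.14 and 9.13, below parental without irinotecan and above it with the drug. TIMP3 had differences of -0.40 and -0.54 and TIMP4 of -0.55 and -0.54. RECK, a membrane-bound inhibitor, had the same level, 5.66, on all arrays, inside the central range of the receptor genes. Its RNA was therefore not shown to be above background.

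The genes of proenzyme activation and its control that passed 2-fold were all lower. Of 17 measured, 0 were higher and 4 lower at 2-fold in LoVo 8R- cells, and 0 and 3 in LoVo 8R+, with medians of 0.00 and -0.02. For comparison, 2.78% of all genes fell past 2-fold on the drug-free LoVo-R8 array, while 1.64% rose past it. With irinotecan these shares were 2.3% and 2.25%. Because this list was drawn up with earlier results known, its counts are a description and nothing particular to it is read from them. ST14, which encodes the epithelial protease matriptase, had log2 levels of 10.38 in the parental line, 8.13 in LoVo 8R- cells and 8.56 in LoVo 8R+. PLAUR, the urokinase receptor, had 9.66, 7.84 and 8.68, and passed 2-fold in LoVo 8R- only. KLK10, a kallikrein-related gene, had 9.58, 8.06 and 8.25, and the trypsinogen gene PRSS1 had 7.62, 5.98 and 5.82. The value of PRSS1 is uncertain, because other trypsinogen genes resemble it closely enough to be read by the same probes. The urokinase gene PLAU itself had differences of -0.38 and -0.19. Some genes of the list lay above parental without reaching 2-fold, among them SERPINE2, a protease inhibitor (0.70 and 0.75), and the cathepsin gene CTSB (0.23 and 0.82).

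**Figure D3:**
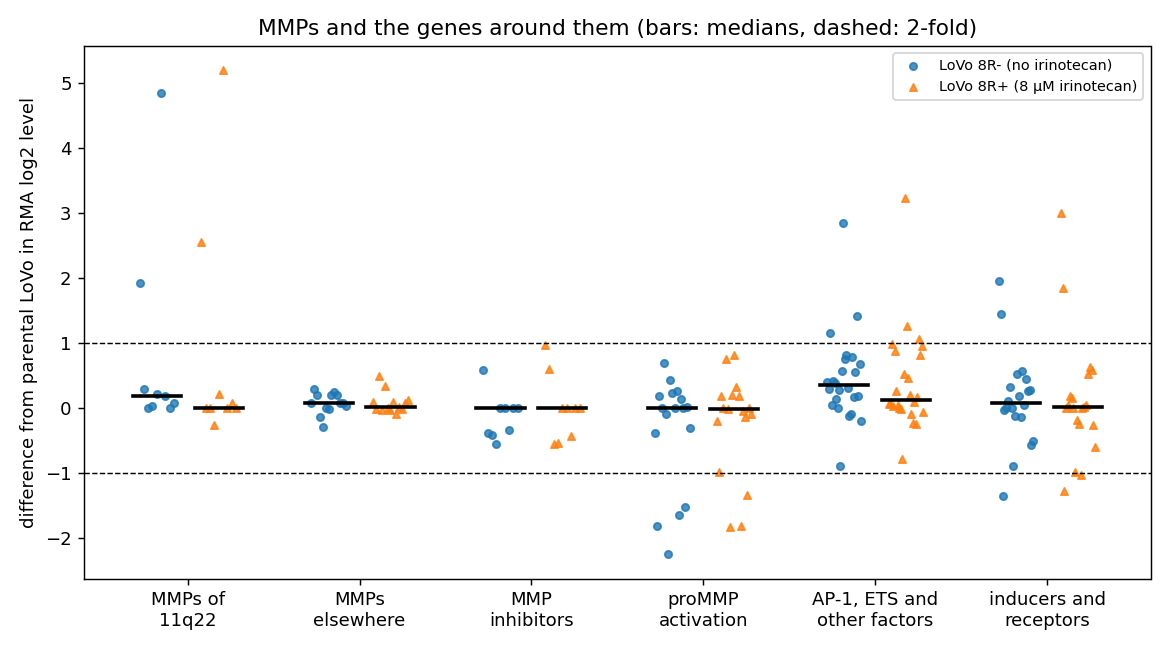
Difference from parental LoVo in RMA log2 level (vertical axis) for each measured gene of 6 lists (horizontal axis), in LoVo 8R- cells (circles) and LoVo 8R+ cells (triangles), with black bars at list medians and dashed lines at 2-fold. MMPs outside 11q22 and inhibitors lie within 2-fold, and the activation genes past 2-fold are lower.

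Among transcription factors of the families that read MMP promoters, ETV1 and RUNX2 had higher levels at 2-fold on both LoVo-R8 arrays. Of 24 measured AP-1, ETS, C/EBP, RUNX and TCF/LEF genes, 3 were higher at 2-fold and 0 lower in LoVo 8R- cells, and 3 and 0 in LoVo 8R+, with medians of 0.35 and 0.13. The shares of all genes on the drug-free array were 1.64% higher and 2.78% lower, and those on the array with irinotecan 2.25% and 2.3%. The list was chosen with earlier results known, so nothing particular to it is read from these counts. ETV1, an ETS factor of the PEA3 subfamily, had log2 levels of 5.13 in the parental line, 7.97 in LoVo 8R- cells and 8.36 in LoVo 8R+, with measured differences of 2.84 and 3.23. Its parental level was below the first quartile of that array (5.39) and within the range of the receptor genes, so these differences have no firm size. Its relative ETV4 had 8.82, 9.58 and 10.10 and passed 2-fold in LoVo 8R+ (0.76 and 1.27). The third member of that subfamily, ETV5, had differences of 0.82 and 0.46.

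RUNX2, a bone and cartilage factor, had 7.80, 9.23 and 8.88 and passed 2-fold on both. FOSL1, which encodes the AP-1 protein FRA1, had 9.75, 10.91 and 10.74, with differences of 1.16 and 0.99. FOS and JUN had 0.41 and 0.42 in LoVo 8R- cells and 0.06 and 0.88 in LoVo 8R+. ETS1 lay below parental by 0.88 and 0.77. Whether any of these factors acts on MMP1 or MMP7 was not tested.

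Among 20 measured inducers of MMP genes and their receptors, 2 were higher and 1 lower at 2-fold in LoVo 8R- cells, and 2 and 2 in LoVo 8R+, with medians of 0.09 and 0.02. Over all genes, 1.64% rose and 2.78% fell past 2-fold on the drug-free LoVo-R8 array, with shares of 2.25% and 2.3% under irinotecan. These inducers and receptors were also picked with earlier results known, so their counts are given only as a description. The higher genes of the list were the interleukin genes IL1A and IL1B. IL1A had log2 levels of 5.30, 7.26 and 8.30 in the parental line, LoVo 8R- and LoVo 8R+. IL1B had 6.05, 7.50 and 7.89 in the same order. The parental levels of both were within the range of the receptor genes, with the same limit on size. IL1R1, which encodes the receptor of both cytokines, was lower, at 6.09, 4.74 and 4.82. Its LoVo-R8 levels lay below the first quartile of those arrays, 5.42 and 5.39. Its parental level also lay within the central range of the olfactory receptor genes, so IL1R1 RNA was not shown to be above background on any array. HBEGF, an EGF receptor ligand, had 9.10, 9.29 and 8.07 and was lower than parental only with irinotecan. BSG, which encodes the MMP inducer CD147, had differences of 0.27 and 0.59.

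**Figure D4:**
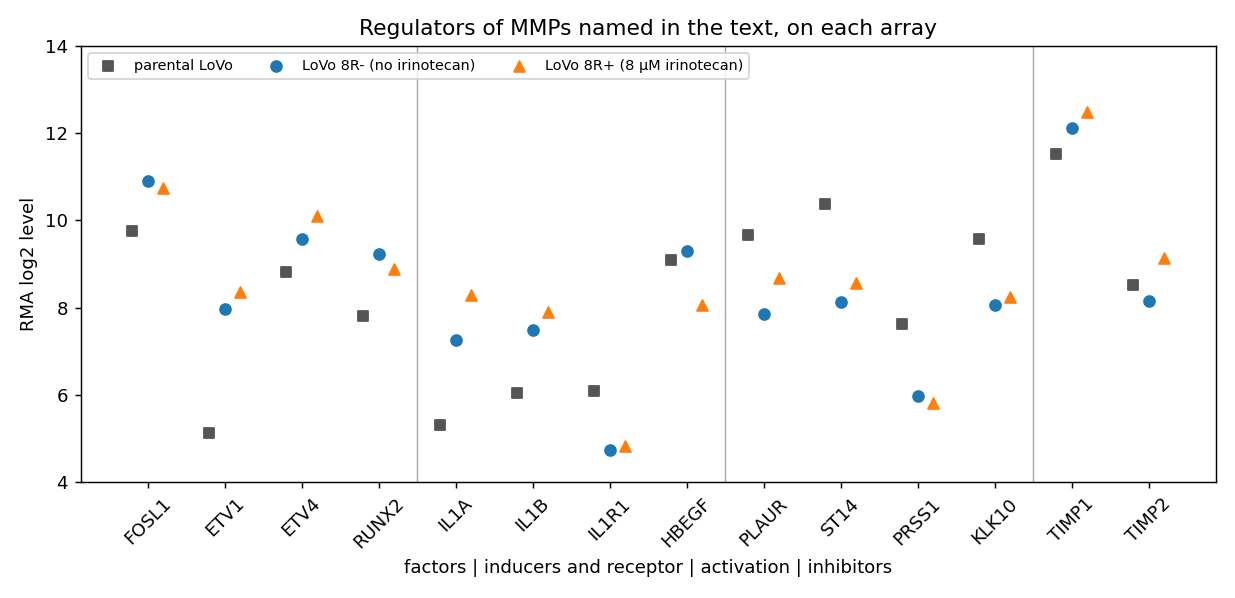
RMA log2 level (vertical axis) of 14 named regulators of MMPs (horizontal axis) on 1 array each of the parental line (squares), LoVo 8R- cells (circles) and LoVo 8R+ cells (triangles). ETV1, RUNX2, IL1A and IL1B lie above their parental levels on both LoVo-R8 arrays, and ST14, KLK10, PRSS1 and IL1R1 lie below.

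The genes with the pattern most like MMP1 were found by the distance between differences from parental on the 2 LoVo-R8 arrays. The 5 nearest of all genes were ZNF675 (distance 1.71 on the log2 scale), AGMO, which encodes an ether lipid enzyme (2.18), TFPI, a coagulation inhibitor (2.23), the chemokine gene CCL20 (2.31) and LINC01152 (2.73). MMP7 was at a distance of 3.94 and the other members at 6.79 to 7.27. Even the nearest gene had smaller differences than MMP1, at 4.13 and 3.64. All 5 had parental levels within the range of the receptor genes. This likeness rests on 3 arrays that share the parental culture. Because MMP1 had the largest increase of all genes, the nearest genes can only be others with large increases. A gene near its parental level is distant by the size of MMP1's own differences. The distances therefore restate the sizes of the differences, and no shared pattern is read from them.

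Most markers of cells that make several of these proteases lay within the full span of the olfactory receptor genes, which is wider than the central range used above. Of 10 fibroblast markers, 0 passed 2-fold on either array and 9 lay in the span on each, all but COL1A1, with summed log2 levels of 55.1 in the parental line, 55.6 in LoVo 8R- cells and 55.1 in LoVo 8R+. The same count of macrophage markers, 9 of 10, lay in that span, with sums of 56.7, 59.6 and 58.9. The exception was CD68, a lysosomal gene also used by other cells, which had levels of 9.64, 11.12 and 11.51. PTPRC, which marks all leukocytes, had 4.12 on each array. Of 9 measured neutrophil markers, 0 passed 2-fold and 7 lay in the span, all but ELANE and PRTN3, with sums of 56.5, 57.3 and 56.5. Over all genes, 1.64% were higher and 2.78% lower at 2-fold in LoVo 8R- cells. In LoVo 8R+ the shares were 2.25% and 2.3%, so nothing is read from the counts of 0.

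The epithelial markers EPCAM, KRT8, KRT18 and KRT19 stood between 11.74 and 13.27 on all arrays. Of 12 colon epithelium markers, 3 were lower and 0 higher at 2-fold on each LoVo-R8 array. Over all genes, 2.78% were lower and 1.64% higher in LoVo 8R- cells, and 2.3% and 2.25% in LoVo 8R+. These markers were also picked with earlier results known, so nothing particular to them is read from the counts. Their summed levels were 121.3 in the parental line, 111.1 in LoVo 8R- cells and 113.7 in LoVo 8R+. CDH1, which encodes E-cadherin, a protein that several MMPs can cleave, had 11.26, 8.20 and 9.0, and LGALS4, an intestinal galectin, had 10.60, 8.33 and 8.59. The claudin genes CLDN4 (9.76, 7.74 and 8.78) and CLDN3 (9.65, 8.66 and 8.05) each passed 2-fold on 1 of the arrays. KRT20 had 6.40 in the parental line and 6.13 on both LoVo-R8 arrays, between the lowest and the highest receptor gene. CDX1 and CDX2 lay above parental, by 0.25 and 0.35 in LoVo 8R- cells and by 0.17 and 0.91 in LoVo 8R+. VIL1 had differences of -0.55 and 0.00. The part of these differences in the MMP values was not tested.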

How the data were processed

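Total RNA (300 ng) of each culture was hybridized by the authors to Affymetrix Human Gene 1.0 ST arrays, 1 per condition. The authors deposited log2 levels. Robust multichip average (RMA) and Affymetrix Expression Console 1.1 are named in the submitters' processing notes. RMA quantile-normalizes the 3 arrays together and summarizes each probe set by median polish. RMA on 3 arrays gives ties: 26.1% of genes, and 5 of the 9 members, have the same value on at least 2 arrays.

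Conditions were taken from the labels. Of 33297 probe sets, 19460 name 1 gene, 1754 several and 12083 none. Each gene was represented by its brightest single-gene probe set. Log2 levels were subtracted and counted at 2-fold, and no test was run, since no condition has a replicate. Precision is limited by the number of arrays. The study's detection filter and p criterion were not used. Gene order came from RefSeq. No protein sequences were used.

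The members and the 11 other gene lists were chosen with earlier results of these data known. By rule, the text names all members and up to 6 genes per list past 2-fold (or 2 where none passed). It also names neighbours past 2-fold, the edge genes and the 5 genes most like MMP1. PDGFRA of the fibroblast list and S100A12 of the neutrophil list were picked by this rule too, but are not described. Others (MMP2, MMP9, TIMP3, TIMP4, RECK, PLAU, ETV5, FOS, JUN, ETS1, BSG, SERPINE2, CTSB, ADAM17, KRT20, CDX1, CDX2, VIL1, PRTN3, YAP1, PTPRC, EPCAM and the keratin genes) were added with their values known. The counting was tested on simulated data. Calculations used Python 3.11.15, numpy 2.4.6, pandas 2.3.3, statsmodels 0.14.6 and matplotlib 3.10.9. The alternatives tried were thresholds of 1.5-fold and 3-fold, median centring, loess correction (span 0.3, 3 iterations), repeated quantile normalization, a filter at the array median and the mean over probe sets.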

Additional observations from a re-analysis of the deposited data

How the results depend on the processing

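Under the alternatives other than the filter on dim genes, MMP1 and MMP7 were the members counted as higher than parental in both LoVo-R8 states, and 0 members were counted as lower. The log2 difference of MMP1 ran from 4.84 to 4.93 in LoVo 8R- cells and from 5.14 to 5.24 in LoVo 8R+. That of MMP7 ran from 1.92 to 1.97 and from 2.54 to 2.56. The mean over probe sets left the values of every member unchanged, so it tests nothing about them. Repeated quantile normalization started from arrays that RMA had already normalized in this way, so it could change little. Between the LoVo-R8 arrays, a threshold of 1.5-fold counted 1 member as higher with irinotecan, MMP7 (0.62), where 2-fold counted 0. The filter at the array median tests nothing about the members, because MMP1 and MMP7, below the median in the parental line, passed it only through the LoVo-R8 arrays where they are high. With these 2 left, the median of the members became 3.39 in LoVo 8R-, 3.88 in LoVo 8R+ and 0.48 between them. No paired analysis was possible because each condition has 1 array. The 7 dim members sit at the level of olfactory receptor genes, so differences of their RNA may be too small to be seen here.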

Other observations

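Neither the related ADAM and ADAMTS proteases nor the matrix proteins that MMPs cleave differed at 2-fold. Of 17 measured ADAM, ADAMTS, astacin and meprin genes, 0 were higher and 0 lower on either LoVo-R8 array, with medians of 0.05 in LoVo 8R- cells and 0.00 in LoVo 8R+. On each array 11 of the 17 were no brighter than the highest olfactory receptor gene, so their differences may be too small to be seen. ADAM19, a membrane-anchored metalloprotease, had log2 levels of 8.02 in the parental line, 7.32 in LoVo 8R- cells and 8.26 in LoVo 8R+. ADAMTS9 had 6.20, 5.76 and 5.64. The ectodomain sheddase gene ADAM17 had differences of -0.02 and -0.16.

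Of 18 measured matrix and substrate genes, 0 passed 2-fold on either array, with medians of 0.10 and -0.01. In the parental line, LoVo 8R- and LoVo 8R+, 11, 13 and 13 of them were no brighter than the highest olfactory receptor gene. The same limit holds for these. HSPG2, which encodes the basement membrane proteoglycan perlecan, had log2 levels of 7.69, 7.94 and 8.37, and the fibronectin gene FN1 had 6.18, 5.82 and 5.67. COL1A1, a chain of the fibrillar collagen that MMP1 cleaves, had 7.49, 7.66 and 7.57.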
